A study of Mus musculus with 4 samples.

Results

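Wide joined peaks are the stretches of 1000 nt or more listed as 1 unbroken peak of MSI2 CLIP-seq signal from mouse intestinal epithelium. They were chosen by 1 measured value, the width of a peak in the authors' 2 pooled peak lists, each list apart: 484 of the 12061 peaks of the wild-type (WT) list and 1703 of the 16939 peaks of the TRE-Msi2 list were that wide, 2187 of 29000 in all. In CLIP-seq, ultraviolet light joins a protein to the RNA it touches, the protein is precipitated, and the RNA fragments held by it are sequenced. Both groups were intestinal epithelial cells of C57BL6 mice with 2 samples each, titled WT 1 and 2 and TG 1 and 2, precipitated with an MSI2 antibody. The TRE-Msi2 cells were total epithelium of animals given doxycycline, which switches on the Msi2 transgene, for 24 hours, and the WT cells were crypts with no doxycycline recorded. Genotype, tissue fraction and doxycycline therefore cannot be told apart, and the labels name neither the activator that drives the transgene nor how many animals gave each sample.

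MSI2 is a Musashi family protein that binds single-stranded RNA through its RNA recognition motifs, prefers short stretches around a UAG, and is known for controlling the translation and stability of messenger RNAs in stem and progenitor cells, often through their 3′ untranslated regions. A peak caller such as Piranha counts reads in fixed windows, and neighbouring windows are joined, so a wide peak is a run of windows rather than one contact. Whether every joined window passed by itself is not known. The p-value deposited beside the score was above 0.05 in 357 of the 484 WT and 1626 of the 1703 TRE-Msi2 wide peaks. For joined peaks this value was not read as a significance. With no input, control antibody or transcript level measured beside the lists used here, a wide peak may reflect a long or abundant transcript as well as MSI2 contacts. The width chose the peaks, and all statements on width are descriptions. Since each list pools its samples, no spread between replicates can be given and nothing was tested between the lists. Intervals are exact Clopper-Pearson 95% binomial intervals and cover counting error only. The score of a peak is the authors' own value and behaves as an average of reads per bin of 200 nt. That average is not always over the bins of the peak alone. Epcam in TRE-Msi2, with 5 bins, scored 101.5, which is not a whole read count divided by 5. How joined values were averaged is not stated. The depth of the libraries is unknown, so scores are read within a list only.

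The wide peaks lay in unlike places. Some lay over genes, among them the widest of both lists. Others, mostly of 1000 or 1200 nt, lay outside all gene spans, were more frequent in the TRE-Msi2 list, and there often had a smaller peak at a set distance downstream. To show the letters around those outside genes, start windows of RefSeq gene models within 6500 nt of the TRE-Msi2 peaks of 1000 to 1200 nt that touch no gene listed on their strand were compared; the genome was not used here, so the letters under the peaks themselves were not read. Of 90 genes with a window there, 6 shared the 19-nt word TGCCGCAGAAGATTCTGGT, which was searched on both strands. It is 1 of 3 overlapping words of that length shared by 6 of these genes, and was chosen after its counts were seen. It occurs in 14 of the 32851 windows of the whole table (0.0426%). These windows of 300 bases, from 250 before to 50 after the start, are shown from GRCm38.p6 (RefSeq), 5′ to 3′ on the plus strand, with the shared word in capitals. The first is chr10:21216246-21216545, the next chr16:80294655-80294954, then chr6:59697917-59698216, and the last chrX:65707145-65707444.
Gm33671: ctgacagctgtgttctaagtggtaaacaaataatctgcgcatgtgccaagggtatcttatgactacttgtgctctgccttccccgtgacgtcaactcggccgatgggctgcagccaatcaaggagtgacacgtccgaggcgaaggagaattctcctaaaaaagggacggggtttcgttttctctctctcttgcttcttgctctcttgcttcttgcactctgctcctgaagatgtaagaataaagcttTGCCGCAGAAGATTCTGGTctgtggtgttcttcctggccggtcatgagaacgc
Gm41479: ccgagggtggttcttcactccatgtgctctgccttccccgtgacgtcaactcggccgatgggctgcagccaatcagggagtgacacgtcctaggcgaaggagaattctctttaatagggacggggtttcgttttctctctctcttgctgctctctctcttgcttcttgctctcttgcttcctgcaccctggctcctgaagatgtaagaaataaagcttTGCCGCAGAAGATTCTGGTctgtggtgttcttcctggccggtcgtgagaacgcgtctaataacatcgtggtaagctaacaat
Gm35195: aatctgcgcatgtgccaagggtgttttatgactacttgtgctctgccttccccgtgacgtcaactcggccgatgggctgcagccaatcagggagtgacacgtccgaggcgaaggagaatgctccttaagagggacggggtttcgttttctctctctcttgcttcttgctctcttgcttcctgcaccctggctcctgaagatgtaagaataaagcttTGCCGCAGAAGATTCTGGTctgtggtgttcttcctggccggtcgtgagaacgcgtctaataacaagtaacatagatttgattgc
Gm52432: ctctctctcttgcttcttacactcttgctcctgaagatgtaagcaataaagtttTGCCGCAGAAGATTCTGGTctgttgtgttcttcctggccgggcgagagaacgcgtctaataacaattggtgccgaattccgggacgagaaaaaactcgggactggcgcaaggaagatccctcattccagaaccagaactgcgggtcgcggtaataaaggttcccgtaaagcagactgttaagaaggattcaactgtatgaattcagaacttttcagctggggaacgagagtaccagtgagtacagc
The first 3 are predicted genes whose windows began 3051, 3099 and 3110 nt after the first base of a TRE-Msi2 peak of 1000 nt on the same strand, and Gm40127 lay alike at 3072 nt. Gm52432 and Gm52446, both on the X chromosome, had windows on the upstream side, starting at -3481 and -3422 nt from the first base of such a peak. As background, the shared word belongs to the long terminal repeat of intracisternal A-particles, a family of mouse retrotransposons present in very many near-identical copies, in which one repeat stands at each end of the element. No repeat annotation was used here, so how many of the wide peaks lie in such elements was not counted. Among the 14 windows with the word, a wide TRE-Msi2 peak stood 2600 to 3800 nt before it or 2800 to 4000 nt after it in 6 (42.9%) and a wide WT peak in 1. These 6 are the windows through which the word was found, so the share is a description. Reads from near-identical copies cannot be placed with certainty, so the count of separate places may differ from the count of peaks.

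The wide peaks were a small share of the WT list and a larger one of the TRE-Msi2 list. They made up 4.01% (3.67 to 4.38) of the WT peaks and 10.1% (9.60 to 10.5) of the TRE-Msi2 peaks, and held 16.5% and 32.3% of all peak bases. The TRE-Msi2 list had 3.52 times as many wide peaks as the WT list, against 1.40 times as many peaks of any width. The median wide peak was 1200 nt in WT and 1000 nt in TRE-Msi2, and the widest were 7200 and 7800 nt. Peaks of 2000 nt or more numbered 51 in WT and 124 in TRE-Msi2. In the WT list the number fell from 270 peaks of 800 nt to 199 of 1000 nt. In the TRE-Msi2 list it went the other way, from 558 of 800 nt to 916 of 1000 nt.

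**Figure D1:**
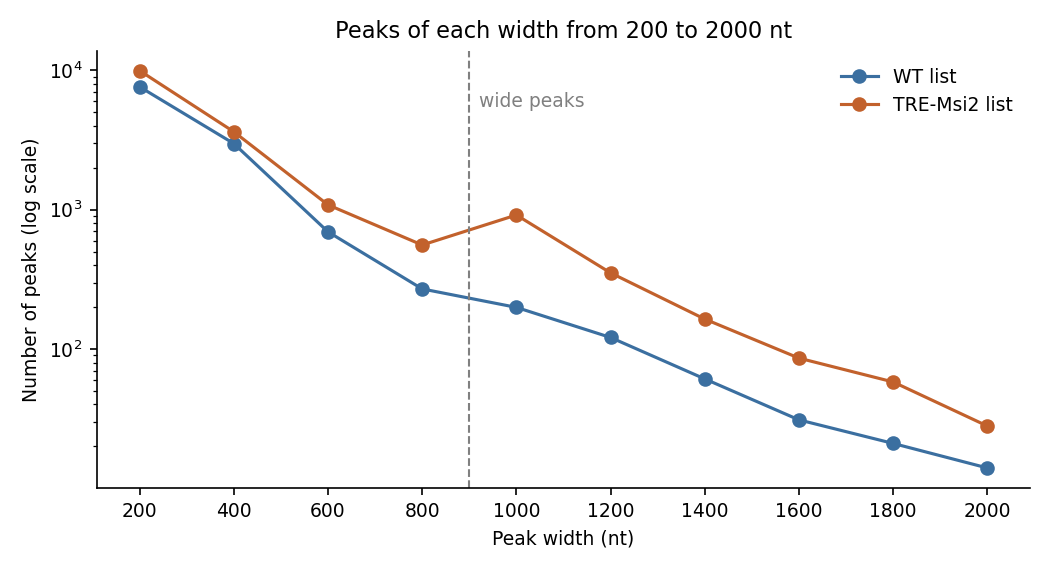
Number of peaks (log scale) at each width from 200 to 2000 nt in the WT and TRE-Msi2 lists, with 1 point per width and a dashed line between 800 and 1000 nt, where wide peaks begin. The TRE-Msi2 line rises from 558 peaks at 800 nt to 916 at 1000 nt, while the WT line falls from 270 to 199.

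Just inside it, the 3 highest-scoring WT peaks of 1000 nt lay in Epcam at 81.6, in Lyz1 at 74.2 and in Anxa4 at 63.2. In the TRE-Msi2 list the leading peaks of that width lay in Epcam at 101.5 and in Cdh17, an intestinal cadherin, at 85.5. Just outside it, Reg3b, an antimicrobial lectin, and Muc13, a membrane mucin, were among the 3 highest of the peaks of 800 nt, with 80.8 and 70.2 in WT and 97.8 and 111.8 in TRE-Msi2. The other was a peak outside genes on chromosome 3, at 89.5 in WT, the highest there, and 93.5 in TRE-Msi2.

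Nearly every wide peak met a peak of the other list on the same strand, but the 2 lists filled each other's wide peaks unequally. A WT wide peak was overlapped by at least 1 base in 483 of 484 cases (99.8%), against 91.3% of all WT peaks. A TRE-Msi2 wide peak was overlapped in 1687 of 1703 cases (99.1%), against 57.6% of all TRE-Msi2 peaks. A wide peak has more bases that can be met, and the centre base alone gave another picture for TRE-Msi2. The centre lay in a peak of the other list for 98.3% of WT wide peaks (90.3% of all WT peaks) and for 50.4% of TRE-Msi2 wide peaks (46.8% of all TRE-Msi2 peaks). By this measure the TRE-Msi2 wide peaks were near the background of their list. WT peaks covered a median of 62.5% of the bases of a TRE-Msi2 wide peak, from 50.0% to 80.0% between the quartiles. For TRE-Msi2 peaks under 1000 nt the median was 50%. TRE-Msi2 peaks covered the whole of 453 of the 484 WT wide peaks (93.6%), against 88.5% of the WT peaks under 1000 nt.

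The TRE-Msi2 wide peaks were often several WT peaks with the gaps between them filled. Of the 1703, 921 (54.1%) held 2 WT peaks, 667 (39.2%) held 1, 99 (5.81%) held 3 or more and 16 held none. Of the WT wide peaks, 469 (96.9%) met a single TRE-Msi2 peak. A wide peak of the other list was met by 465 WT wide peaks (96.1%), against 23.4% of all WT peaks. For TRE-Msi2 it was 452 wide peaks (26.5%), against 2.85% of all TRE-Msi2 peaks. A wider peak has more room, and the number of other-list peaks inside was not counted for narrower ones. In the 467 pairs of wide peaks that met, 218 (46.7%) had identical edges and 239 (51.2%) were wider in TRE-Msi2, with WT wider in 9. The median difference was 200 nt, which is 1 bin.

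Most of the widest peaks lay over gene spans and were wide in both lists, apart from the cases named here and below. Exons were not in the annotation used, so whether a peak follows a single transcript was not tested. Apob, the apolipoprotein that forms the core of chylomicrons, held the widest peak of both lists. It covered 7200 nt in WT (chr12:8006195-8013394) at a score of 52.4 and 7800 nt in TRE-Msi2 (chr12:8005595-8013394) at 63.5. A second Apob peak of 1800 nt near the end of the gene had the same edges in both lists and scored 81.4 in WT and 82.7 in TRE-Msi2. Malat1, an abundant nuclear long noncoding RNA with its span at chr19:5795690-5802672, had a peak of 6600 nt in TRE-Msi2. It met 2 WT peaks that summed to 6400 nt, the widest 6000 nt. Orc5, a subunit of the origin recognition complex, had a peak of 5400 nt with the same edges in both lists, at scores of 34.0 in WT and 66.5 in TRE-Msi2. Lpgat1, a lysophospholipid acyltransferase, had 5400 nt in TRE-Msi2 over 3 WT peaks that summed to 5000 nt, the widest 4400 nt. Gda, the enzyme guanine deaminase, had 4000 nt in both lists, scoring 43.5 in WT and 57.5 in TRE-Msi2. Ddx3x, an RNA helicase, and Arhgap5, a GTPase activating protein, had 3200 nt in both. Cxadr, a tight junction adhesion protein, had 4200 nt in WT and 4400 nt in TRE-Msi2.

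**Figure D2:**
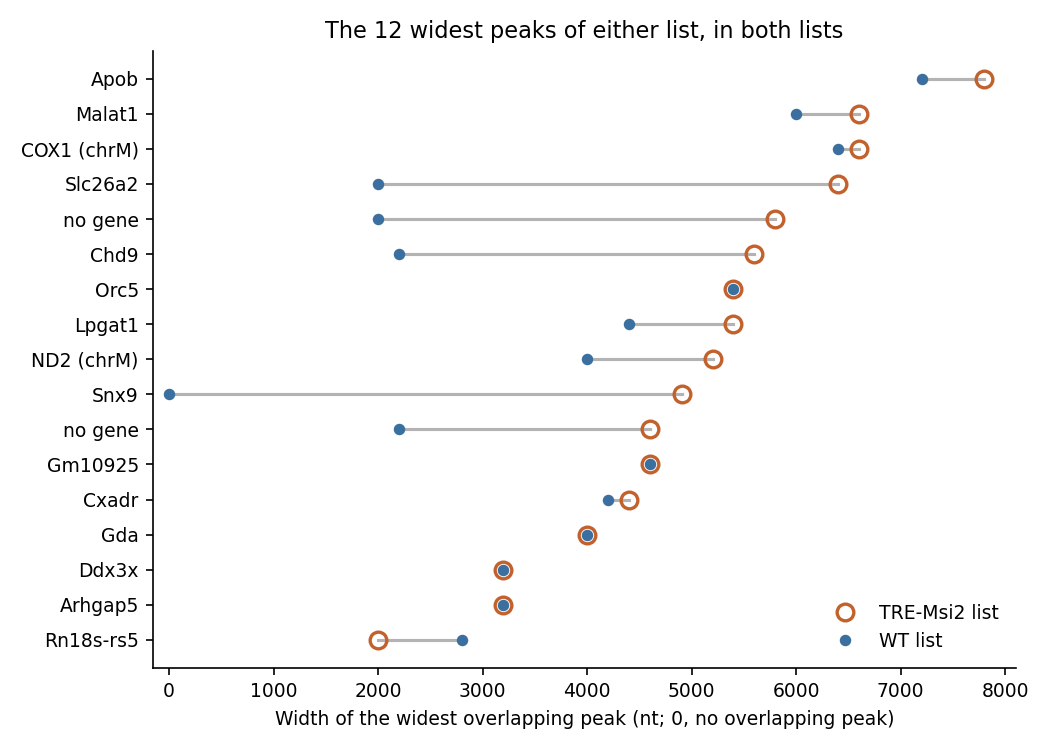
Width (nt) of the 12 widest peaks of either list, 17 places in all, in the WT list (filled blue) and the TRE-Msi2 list (open orange); where the other list has several peaks inside, its widest is drawn, and 0 means that it has none. Apob, Orc5, Gda, Ddx3x and Arhgap5 are as wide or nearly as wide in both lists, while Chd9, Slc26a2 and 2 places outside genes were broken into smaller peaks in WT and Snx9 had no WT peak.

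Several of the widest TRE-Msi2 peaks stood where the WT list had a row of smaller peaks. Chd9, a chromatin remodeler, had WT wide peaks of 1400, 1600 and 2200 nt separated by single bins, with scores of 26.9, 36.5 and 37.1. In TRE-Msi2 the same stretch was 1 peak of 5600 nt (chr8:90886302-90891901) at 50.3. Slc26a2, a sulfate transporter, was touched by a TRE-Msi2 peak of 6400 nt (chr18:61192947-61199346) over 4 WT peaks that summed to 5800 nt, the widest 2000 nt. The span of this gene, of unlisted strand, is chr18:61196854-61211596, so most of the peak lay outside it. Norad, a long noncoding RNA that binds Pumilio proteins, had a TRE-Msi2 peak of 4400 nt over 3 WT peaks that summed to 3800 nt, the widest 1800 nt. Eef1a1, which brings aminoacyl-tRNA to the ribosome, went from WT peaks of 1200 and 1000 nt to a TRE-Msi2 peak of 2400 nt. Ptbp3, a splicing regulator, had a TRE-Msi2 peak of 4600 nt over 3 WT peaks that summed to 4000 nt, the widest 2800 nt. The stretches outside genes at chr4:133095886-133101685 and chr6:40866602-40871201 were 5800 and 4600 nt wide in TRE-Msi2 and held 4 and 3 WT peaks.

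The mitochondrial genome carried 3 wide peaks in each list, on the plus strand. The stretch from COX1 to ND4, which encodes respiratory chain subunits, ran for 6400 nt in WT (chrM:5401-11800) at 22.6 and for 6600 nt in TRE-Msi2 at 33.6. The stretch over both ribosomal RNAs and ND1 ran for 4000 nt in WT at 90.8, reaching the start of ND2, and for 5200 nt in TRE-Msi2 at 74.4, past the end of ND2. CYTB had 1000 nt at 13.6 in WT and 1200 nt at 23.1 in TRE-Msi2. Wide peaks thus touched 28 of the 37 mitochondrial genes in WT and 34 in TRE-Msi2, all through these 3 peaks, whose centre bases lay in 3 genes in each list. With peaks over a single gene span only, the number was 1 in WT and 0 in TRE-Msi2. A peak of 4600 nt over the pseudogenes Gm10925 and Gm10222 on chromosome 1 (chr1:24611562-24616161) scored 22.1 in WT and 33.6 in TRE-Msi2, close to the COX1 stretch in each list. This locus is known as a nuclear copy of mitochondrial DNA, so reads cannot be given to one place or the other. The highest score of any wide peak was over Rn18s-rs5, an 18S ribosomal RNA pseudogene, at 94.0 over 2800 nt in WT and 124.3 over 2000 nt in TRE-Msi2, with the same uncertainty.

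Wide peaks over genes sat towards the end of the span. Of the 273 WT wide peaks over a single protein-coding span of at least 10 kb, 151 (55.3%, 49.2 to 61.3) had their centre in the last 2 kb, read in the direction of the reads, against 39% of all such WT peaks. In TRE-Msi2 it was 275 of 694 (39.6%, 36.0 to 43.4), against 33.2% of all such peaks. The TRE-Msi2 peaks of 1000 to 1200 nt were at 32.5% (28.2 to 37.1), near that background, and those of 1400 nt or more at 52.4% (46.0 to 58.8). With only genes whose listed strand is that of the peak, the last 2 kb held 61.3% in WT, against 47.1% of all such WT peaks, and 54.8% in TRE-Msi2, against 39.2%. The first 2 kb held 1 wide peak in WT and 2 in TRE-Msi2 (0.366% and 0.288%, against 4.78% and 4.68% of all peaks). Over single coding genes on their own strand, 107 of 253 WT peaks (42.3%) and 206 of 489 TRE-Msi2 peaks (42.1%) ended within 400 nt of the annotated end of the gene, against 24.9% of all such WT and 21.8% of all such TRE-Msi2 peaks. Exons and untranslated regions were not in the annotation used here.

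Over all protein-coding genes, 319 of the 3789 with a WT peak (8.42%) and 620 of the 4668 with a TRE-Msi2 peak (13.3%) had a wide one. The 2 sets shared 307 genes, 96.2% of those wide in WT and 49.5% of those wide in TRE-Msi2. Among the 620, 617 had some WT peak. The counts of the gene lists below are read beside these shares, as descriptions of the lists without a test.

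Brush border genes were more often wide than all coding genes with a peak, and lipid absorption genes were near that share. Of 20 brush border enzymes and transporters, 5 had a wide peak in WT and 10 in TRE-Msi2, where 18 and 19 had any peak (27.8% and 52.6% of these). Slc5a1, the sodium-glucose transporter, had 2200 nt with the same edges in both lists, at 56.1 in WT and 81.9 in TRE-Msi2. Anpep, an aminopeptidase, had 2000 nt in both at 64.7 and 106.5, the second highest score of a TRE-Msi2 wide peak. Mgam, which digests starch products, had 1200 nt in both at 66.0 and 69.3. Slc9a3, a sodium-proton exchanger, had 2200 nt in TRE-Msi2 over 3 WT peaks that summed to 1400 nt. Of 20 genes of lipid absorption and chylomicrons, 2 were wide in each list, Apob and Mttp, a triglyceride transfer protein, where 18 and 19 had any peak (11.1% and 10.5% of these). Mttp had 1400 nt with the same edges in both lists, at 54.4 in WT and 68.6 in TRE-Msi2.

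Adhesion genes had the largest share of members with a wide peak among the nuclear lists, 6 of 20 in WT and 11 in TRE-Msi2, with 15 holding any peak in each (40% and 73.3% of these). Epcam, the epithelial adhesion molecule, had 1000 nt with the same edges in both (chr17:87650261-87651260) at 81.6 and 101.5. Cdh1, E-cadherin, had 1800 nt in both at 30.3 and 44.3. Among microvillus and cytoskeleton genes, 7 of 20 in TRE-Msi2 and 4 in WT were wide, 41.2% and 25% of those with any peak. Actb and Pls1, which encodes the actin bundler plastin 1, each had 1800 nt in both lists, and Actg1 went from 1200 to 1600 nt.

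Goblet, Paneth and stem cell lists had the same number of wide members in both lists. In the goblet cell and mucus list, 3 of 13 were wide in each list, of 9 with any peak. These were Muc3 and Muc13, membrane mucins, and Pigr, the receptor that carries IgA across the epithelium. The other members, among them Muc2, Fcgbp, Clca1, Zg16, Tff3, Agr2 and Spink4, had no wide peak in either list. Muc3 had 1800 nt in WT and 1902 nt in TRE-Msi2, Pigr 1600 nt in both, and Muc13 1200 and 1400 nt. In the Paneth list, 13 of 14 genes had some peak and 1 was wide, Lyz1, lysozyme, with 1000 nt in both lists at 74.2 and 76.4. In the stem cell list, 2 of 18 were wide in both lists, where 10 in WT and 13 in TRE-Msi2 had any peak. Olfm4, a marker of crypt base stem cells, had 2000 nt at 57.5 in WT and 54.2 in TRE-Msi2, and Slc12a2, an ion cotransporter high in crypts, had 1000 nt at 31.2 and 18.7. The share of each cell type was not measured, so fewer cells of a type and less RNA per cell cannot be told apart.

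Chaperones and RNA-binding proteins were the other lists with several members. In the secretory pathway list, 3 of 14 in WT and 6 in TRE-Msi2 were wide, where 13 had any peak in each (23.1% and 46.2% of these). Hspa5, the chaperone BiP, had 1000 nt in both lists, at 47.2 in WT and 76.8 in TRE-Msi2. Hsp90b1 had a 1000-nt peak in TRE-Msi2 and 400 nt inside it in WT. Of 11 cytosolic chaperones, 1 in WT and 3 in TRE-Msi2 were wide, where 9 and 11 had any peak (11.1% and 27.3% of these). Hspa8, the constitutive Hsp70, had 3000 nt in TRE-Msi2 over 4 WT peaks that summed to 2000 nt. Of 24 RNA-binding regulators, 6 in WT and 9 in TRE-Msi2 were wide, where 23 had any peak in each (26.1% and 39.1% of these). Among them was Hnrnpk with 1200 nt in both. Of 18 translation factors, 3 and 4 were wide, where 15 had any peak in each (20% and 26.7% of these).

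Other lists held few or none. Of 85 ribosomal protein genes, which have short messages, 0 had a wide peak in either list, though 41 in WT and 56 in TRE-Msi2 had a peak. In the BMP and TGF-beta list 0 of 15 were wide in either list, with 5 in WT and 13 in TRE-Msi2 holding any peak. Enteroendocrine, tuft and immune genes had no wide peak, where 6, 1 and 6 in WT and 8, 0 and 6 in TRE-Msi2 had any peak. These counts are too small to set 0 apart from the 8.42% and 13.3% of all coding genes. The 13 stromal, muscle and endothelial genes had no peak of any width in either list. The stromal list could thus hold no wide peak, so its 0 says nothing on width. The proliferation list had 1 wide member of 23, Ccnd2, cyclin D2, in TRE-Msi2, where 10 had any peak (10%, near the share of all coding genes).

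Some genes held several wide peaks, and in St3gal4, Gm40814 and Gm39743 these stood at repeated distances. St3gal4, a sialyltransferase, had 9 in TRE-Msi2, all on its strand. Those starting at 35073816, 35075016 and 35076216 of chromosome 9, scoring 27.2, 28.3 and 30.8, had counterparts exactly 12400 nt further on, scoring 27.8, 28.3 and 30.7. The WT list had 1 such pair of 1000 nt at 12400 nt, both at 19.2. The predicted genes Gm40814 and Gm39743 each had 3 wide WT peaks, which started 2000 and 7600 nt after the first of them, and the same starts were wide in TRE-Msi2. Neat1, the RNA that builds paraspeckles, had 4 wide peaks in TRE-Msi2, of 1000 to 2400 nt, and the widest WT peak inside each was 200 to 600 nt. Purb, a single-stranded nucleic acid binding protein, had 3 of 1000 to 2200 nt.

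Start windows of predicted genes lay whole inside wide peaks on the same strand in 7 cases in WT and 8 in TRE-Msi2, and several of these windows were copies of each other. Those of Gm52787 and Gm52796 were identical over 300 bases. That of Gm52236 matched both at 99.7% and that of Gm46911 at 98.0%. Their WT peaks were each 1200 nt wide, with scores of 32.8, 32.7, 33.7 and 26.5 in that order. The TRE-Msi2 peaks of the first 3 were each 1400 nt wide and scored 48.1, 46.9 and 47.9, and that of Gm46911 was 1600 nt wide and scored 27.4. Reads from copies so alike cannot be placed with certainty, so the 4 peaks may not be separate measurements. Only the start windows were compared, and how reads were shared between the peaks was not tested.

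The lists differed in how many of their wide peaks lay outside genes. Of the WT wide peaks, 357 of 484 (73.8%) touched a protein-coding span, against 67.4% of all WT peaks, and 103 (21.3%, 17.7 to 25.2) touched no span, against 26.1%. Of the TRE-Msi2 wide peaks, 858 of 1703 (50.4%) touched a protein-coding span, against 68.6% of all TRE-Msi2 peaks, and 734 (43.1%, 40.7 to 45.5) touched none, against 25.3%. Spans of other genes alone were touched by 4.96% of the WT and 6.52% of the TRE-Msi2 wide peaks, against 6.59% and 6.09% of all peaks. Several spans were touched by 6.40% and 4.40%, against 6.07% and 6.06%. When spans known to lie on the other strand were not counted, a choice made after seeing the data, 26.7% of the WT and 53.8% of the TRE-Msi2 wide peaks touched none.

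The excess lay at 1000 and 1200 nt. In TRE-Msi2, 53.5% (50.3 to 56.8) of the peaks in the 1000-nt class touched no gene span, then 44.9% at 1200 nt, 26.2% at 1400 nt and 4.84% at 2000 nt or more. In WT the values were 23.1% at 1000 nt, 30.6% at 1200 nt, 18.0% at 1400 nt and 3.92% at 2000 nt or more. The 734 TRE-Msi2 peaks had scores in a narrow range, from 20.5 to 24.8 between the quartiles, and the 559 over a gene on their own strand ranged from 22.5 to 33.5. They were spread over every nuclear chromosome, with the most, 65, on chromosome 1.

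**Figure D3:**
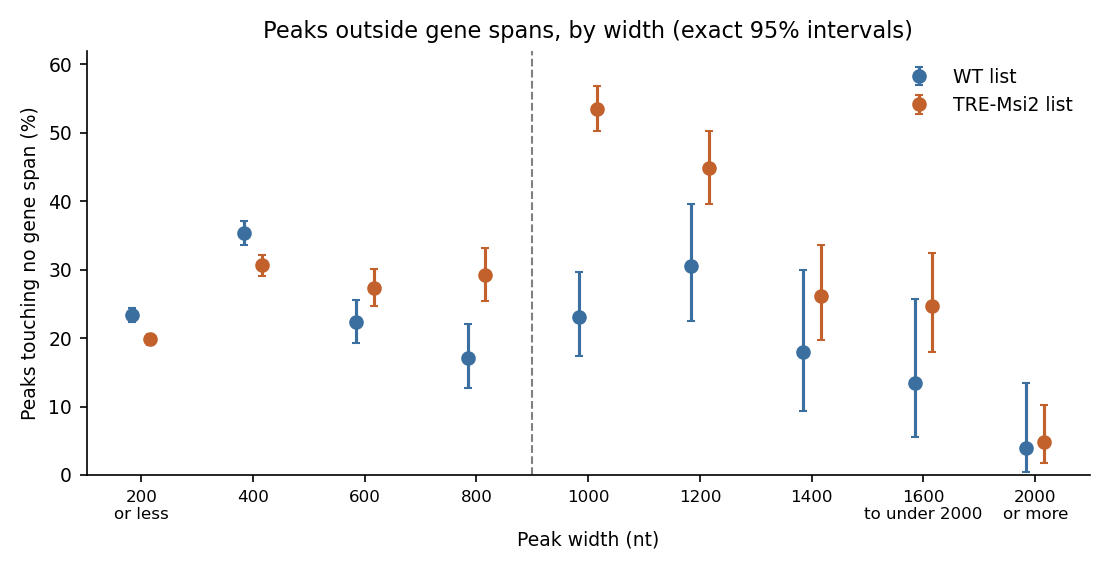
Share of peaks (%) that touch no gene span in each width class (nt) of the WT and TRE-Msi2 lists, with exact 95% binomial intervals as bars and a dashed line where wide peaks begin. TRE-Msi2 peaks reach 53.5% at 1000 nt and 44.9% at 1200 nt and fall to 4.84% at 2000 nt or more, while WT peaks stand at 23.1%, 30.6% and 3.92% there.

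These peaks had a recurrent layout of WT signal inside them. Of the 490 TRE-Msi2 peaks of 1000 nt outside gene spans, 156 (31.8%) held exactly a WT peak of 200 nt in the first bin and a WT peak of 400 nt in the last 2 bins, and 71 (14.5%) the same with 400 nt in front. The same layout occurred in 18 of the 209 peaks of that width over a gene on their own strand (8.61%). From the 5′ edge, the 5 bins held a WT peak in 71.0%, 30.4%, 22.4%, 90.4% and 87.8% of the 490. In the 209 the values were 63.2% in each of the first 3 bins, then 78.5% and 69.9%. The middle bins were thus low outside genes and level with the first bin over genes. The centre base lay in a WT peak for 33.0% (29.6 to 36.5) of all wide TRE-Msi2 peaks outside genes and for 73.5% (69.7 to 77.1) of those over a gene on their own strand.

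**Figure D4:**
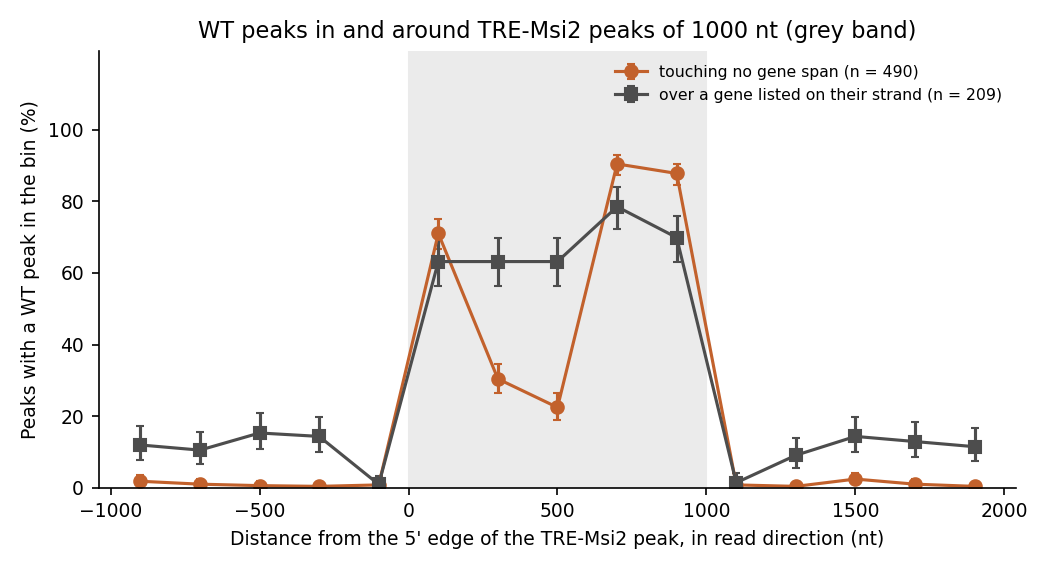
Share (%) of TRE-Msi2 peaks of exactly 1000 nt that have a WT peak in each 200-nt bin, from 1000 nt before to 1000 nt after the peak, for the 490 that touch no gene span and the 209 over a gene listed on their strand; bars are exact 95% binomial intervals. Outside genes the WT signal sits in the first bin and the last 2 bins with a dip to 22.4% between, while over genes it stays between 63.2% and 78.5%.

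A second peak followed at a set distance. Of the 734 wide TRE-Msi2 peaks outside gene spans, 483 (65.8%, 62.2 to 69.2) had another TRE-Msi2 peak on the same strand that started 1800 to 2200 nt downstream of their 5′ edge, against 13.7% of all TRE-Msi2 peaks. For those of 1000 and 1200 nt it was 71.2% (67.5 to 74.6), and for those of 1400 nt or more 24.7% (16.0 to 35.3). Wide peaks touching only genes of the opposite strand were alike, at 63.4% (56.0 to 70.4), and wide peaks over a gene on their own strand were at 21.1% (17.8 to 24.7). In 364 of the 734 the start was in the step at 2000 nt. The partners had a median width of 400 nt and a median score of 28.3. Of the 483, 136 (28.2%) overlapped a WT peak, against 57.6% of all TRE-Msi2 peaks and 67.2% of those in the 400-nt class. In WT, 19.4% (12.3 to 28.4) of the 103 wide peaks outside genes had a partner there, against 8.7% of all WT peaks. Their most frequent spacing was upstream, with 33 (32.0%) having another WT peak that started 2000 nt before them. On the opposite strand, 15.7% of the 734 had a peak at 1800 to 2200 nt, against 1.99% of all TRE-Msi2 peaks.

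**Figure D5:**
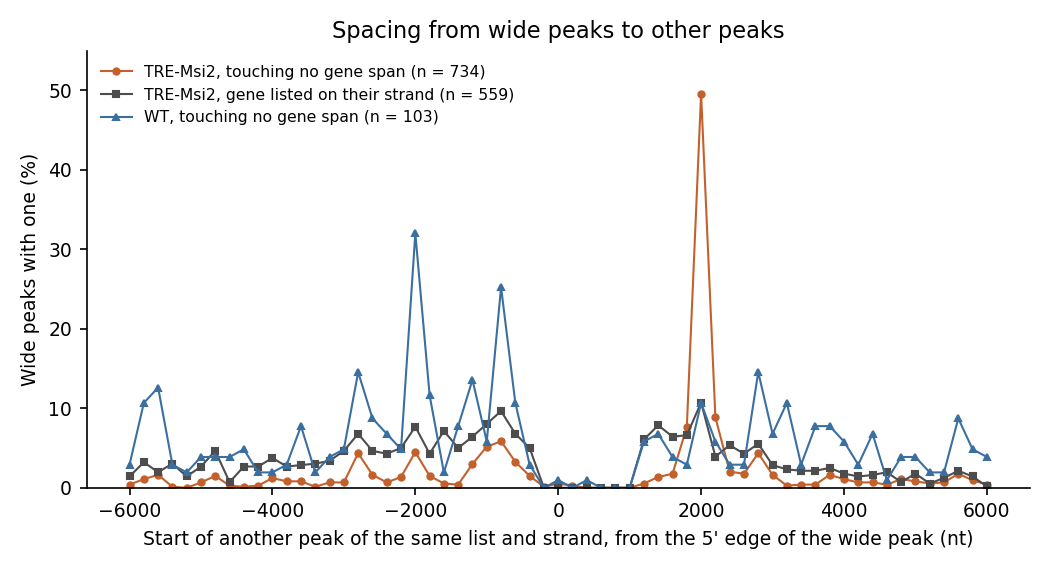
Share (%) of wide peaks that have another peak of the same list and strand starting at each distance (nt, in steps of 200) from their 5′ edge, for wide TRE-Msi2 peaks outside gene spans (734), wide TRE-Msi2 peaks over a gene on their strand (559) and wide WT peaks outside gene spans (103). The first group has a single spike of 49.6% at 2000 nt, the second stays at or below 10.7%, and the third has its highest values upstream, 32.0% at -2000 nt and 25.2% at -800 nt.

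Wide peaks without any peak of the other list were few. In WT the single one was in Bzw2, a translation regulator, with 1200 nt at a score of 15.3. The 16 in TRE-Msi2 scored between 12.6 and 29.7, and 6 of them touched no gene. The widest was over Snx9, an endocytic sorting protein, with 4909 nt at 22.5. It is one of 4 wide Snx9 peaks that partly overlap each other, and its edges do not follow the 200-nt bins as almost all others do. Pfkp, platelet phosphofructokinase, had 2 such peaks, of 1800 and 1600 nt, at 23.0 and 23.9. Tatdn1, a nuclease, had 1800 nt at 29.7, and Kdm7a, a histone demethylase, 1400 nt at 18.3.

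Wide peaks scored above narrower ones in WT, and slightly below them in TRE-Msi2 with all wide peaks counted. In WT the median was 24.8 (23.8 to 26.0) for wide peaks and 19 for peaks under 1000 nt. In TRE-Msi2 it was 23.7 (23.4 to 23.9) for wide peaks and 25 for the others. Without the 1000- to 1200-nt peaks outside genes the TRE-Msi2 wide median was 25.4 (24.9 to 25.9). With a minimum of 1200 nt it was 25.3 (24.6 to 26.3). Both intervals hold the 25 of the peaks under 1000 nt. With a minimum of 1600 nt the median was 27.8 (26.8 to 28.9), above that value. The p-value deposited beside the score was above 0.05 in 357 of the 484 WT wide peaks and 1626 of the 1703 TRE-Msi2 wide peaks, while no peak of a single bin exceeded that value, and for joined peaks it was not read as a significance.

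Annotated microRNA hairpins were found in wide peaks at 2 places. The hairpin of Mir1892, in Sptssa on chromosome 12, lay in a 1000-nt peak with the same edges in both lists, at 29.4 in WT and 27.0 in TRE-Msi2. That of Mir1902, in Hipk3 on chromosome 2, lay in a 1000-nt WT peak at 25.6, of which TRE-Msi2 peaks covered 60.0%. Their mature sequences, from RefSeq (GRCm38.p6), are given with the seed, bases 2 to 8, in capitals, since they are the annotated microRNAs found inside wide peaks.
miR-1892: aUUUGGGGacgggagggaggau
miR-1902: aGAGGUGCaguaggcaugacuu
The 2 seeds differ. Both hairpins lie on the strand of their host gene, and at this width signal from the host transcript and from the hairpin cannot be told apart.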

How the data were processed

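MSI2-bound RNA was measured by CLIP-seq in 4 samples, 2 per genotype. Per the submitters' processing notes, cutadapt, TopHat and the builds mm9 and mm10 were used, with no version stated there. Per the file names, the authors deposited 1 Piranha list per genotype with samples merged. The deposited cell beside each position joins a score, which behaves as an average of reads per bin of 200 nt, to a p-value. Coordinates match mm10 (GRCm38). Depth per sample is unknown.

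Rows with end minus start of at least 1000 nt were kept. Gene spans came from RefSeq GRCm38.p6 (49997 placed genes). Strand came from its start-window and microRNA tables, which cover 79.9% of protein-coding genes, and a gene of unlisted strand counted on either. Overlap between lists meant 1 shared base or more on the same strand. Intervals are exact Clopper-Pearson at 95%. Named peaks were the 12 widest and 5 highest-scoring per list, genes with at least 3 wide peaks (up to 10), the 8 widest without overlap, mitochondrial peaks and the 4 widest per gene list; of those the ones with most to show are described, and a few are not reported here. The St3gal4, Gm40814 and Gm52787 repeats, the layouts, the spacing and the shared word were singled out after their values were seen. Members and lists were chosen with earlier results of these data known. Scripts used Python 3.11.15, pandas 2.3.3, numpy 2.4.6 and SciPy 1.17.1 and were tested on simulated data.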

Additional observations from a re-analysis of the deposited data

How the results depend on the processing

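The main shares, medians and counts were recomputed under the other settings, and a value is given where it left its own 95% interval (counts: moved by over 1.5 times). The number of wide peaks in WT was 754 at 800 nt or more, 285 at 1200 nt, 103 at 1600 nt, and 1007 when peaks within 200 nt were joined first; in TRE-Msi2 it was 786 at 1200 nt, 270 at 1600 nt, 713 among peaks at or above the median score, and 1054 without the 1000- to 1200-nt peaks outside genes, a choice added after seeing the data. In the last 2 of these settings, and after joining, the TRE-Msi2 median width was 1200 nt. Overlap of WT wide peaks was 98.3% by the centre base, 100% at 1600 nt, 83.3% with the other list cut at its median score and 92.6% with the longer list cut to the shorter. For TRE-Msi2 it was 82.3% when at least 50% of the peak had to be covered, 50.4% by the centre base, 98.1% at 800 nt and 70.0% with the WT list cut at its median score. The median share of TRE-Msi2 bases covered was 71.4% at 1200 nt, 77.8% at 1600 nt and 75% without the 1000- to 1200-nt peaks outside genes.

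Protein-coding spans were touched by 87.4% of WT wide peaks at 1600 nt and 69.2% when opposite-strand spans were not counted, and no span by 8.74% and 26.7%. In TRE-Msi2, coding spans were touched by 54.2%, 63.9% and 79.3% at 800, 1200 and 1600 nt and 41.3% without opposite-strand spans, and no span by 39.7%, 30.9%, 15.6% and 53.8%. At 1600 nt the gap between the lists in peaks outside genes was thus the smallest of the 4 widths tried. The last 2 kb of spans was reached by any base of 65.9% in WT and 46.8% in TRE-Msi2; the last 1 kb held 37.0% and 25.8%, the last 10% of the span 69.6% and 51.9%, and the last 2 kb with short spans kept 44.0% in TRE-Msi2. Median scores were 26.9 and 28.1 in WT and 25.3 and 27.8 in TRE-Msi2 at 1200 and 1600 nt, and 25.4 in TRE-Msi2 without the peaks outside genes. Of these 92 recomputed values, 46 stayed within the interval or limit. For single gene lists and the downstream partners, 51 of 60 did. The others were mitochondrial genes with a wide peak, 3 in each list by the centre base and 1 in WT and 0 in TRE-Msi2 with peaks over a single span; WT long noncoding genes, 1 with such peaks; and partners of wide peaks outside genes, 10.7% in WT and 49.6% in TRE-Msi2 at exactly 2000 nt, and 0% and 15.7% on the opposite strand. No paired analysis was possible because each list pools the 2 samples of a genotype, and for the same reason no sample could be left out. The depth of the libraries is unknown, and how it differs between the lists limits every comparison of counts and widths.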
